A study of Mus musculus with 12 samples.

Results

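Interferon-stimulated genes are the genes a cell switches on when it senses interferon. A list of 44 of them was followed here across 4 kinds of mouse CD4+ T cells, and each was read from the probes whose gene name in the array files equals its symbol. Where several probes carried the name, the probe with the highest mean log2 signal over the 12 arrays stood for the gene. All 44 were on the array and 43 could be tested, out of 18645 genes tested and 30157 gene names in all. Oas1g was not tested because it was well above background on 2 of the 12 arrays only, both from transferred cells.

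The study profiled gene expression of CD4+ T cells in experimental autoimmune encephalomyelitis (EAE), a mouse model of multiple sclerosis driven by T cells that recognise myelin oligodendrocyte glycoprotein (MOG). The first group, called immunised here, holds CD4+ T cells from the central nervous system (CNS) of wild-type C57BL/6 mice at the peak of EAE after immunisation with MOG35-55 peptide. The second, called transferred, holds CD4+ T cells recovered at peak disease from the CNS of lymphopenic RAG1-/- mice that had received Th17 cells made in vitro. The third, the Th17 culture, is those in vitro differentiated cells themselves, and the fourth is the naive CD4+ T cells from which they were made. The naive cells were taken from spleens of B6.2d2 animals, which carry a MOG-specific T cell receptor as a transgene, so all but the immunised group have that receptor. RAG1-/- hosts make no T or B cells of their own, whereas the immunised animals keep their own lymphocytes. Immunised and transferred cells therefore differ at once in receptor, host and route to disease, which cannot be told apart. Each group has 3 arrays, from 3 separate experiments.

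As background, type I interferons bind the receptor made of IFNAR1 and IFNAR2, whose kinases TYK2 and JAK1 signal to the complex ISGF3. That complex contains STAT2 and IRF9 and binds the interferon-stimulated response element (ISRE) in promoters. Interferon-gamma uses another receptor and acts through gamma-activated sites (GAS), and it is a strong inducer of the guanylate-binding and immunity-related GTPases. Type I interferon is used as a treatment in multiple sclerosis, and mice without its receptor develop more severe EAE.

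The promoters below show the element in the genes whose signals are described later, from the RefSeq annotation of build GRCm38.p6, 250 bases before to 50 bases after the start of transcription, each read 5′ to 3′ along the gene. Capitals mark matches to an ISRE-like motif, a GAAA block, any 2 bases and a second GAAA block, or the same read on the other strand, TTTC, any 2 bases and TTTC, and matches that overlap run together. Ifit3 (chr19:34583279-34583578, plus strand) leads the IFIT genes by the size of its change and has separate matches whose first bases lie at -156 and -122 from the start.
Ifit3: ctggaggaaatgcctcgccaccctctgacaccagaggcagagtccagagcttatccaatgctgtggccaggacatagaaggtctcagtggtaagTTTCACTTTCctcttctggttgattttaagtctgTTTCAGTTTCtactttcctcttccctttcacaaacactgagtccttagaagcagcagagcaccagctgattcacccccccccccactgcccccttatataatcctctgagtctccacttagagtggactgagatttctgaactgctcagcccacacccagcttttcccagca
Oas1a (chr5:120907476-120907775, minus strand) and Gbp3 (chr3:142559794-142560093, plus strand, the upstream one of its listed starts) have overlapping matches close to the start, at -20 and -14 in Oas1a and at -45 and -39 in Gbp3. The promoter of the other listed Gbp3 start has no match and is not shown. Oas1a and Gbp3 were added after the matches were seen, as an OAS and a GTPase gene with the element.
Oas1a: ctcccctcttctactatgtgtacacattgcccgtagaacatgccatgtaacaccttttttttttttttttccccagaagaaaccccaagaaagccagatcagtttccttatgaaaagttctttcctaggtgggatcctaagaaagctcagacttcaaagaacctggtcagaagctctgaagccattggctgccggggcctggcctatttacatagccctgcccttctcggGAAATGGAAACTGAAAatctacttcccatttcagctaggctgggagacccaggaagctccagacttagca
Gbp3: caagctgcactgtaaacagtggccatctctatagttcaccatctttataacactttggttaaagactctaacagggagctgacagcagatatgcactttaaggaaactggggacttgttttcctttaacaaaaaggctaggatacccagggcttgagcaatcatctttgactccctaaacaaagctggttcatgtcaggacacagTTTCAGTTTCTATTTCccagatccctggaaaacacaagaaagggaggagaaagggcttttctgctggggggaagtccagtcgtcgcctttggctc
Ifitm3 (chr7:141010695-141010994, minus strand) was added in the same way for the IFITM genes, the 3 listed genes called higher in the culture against naive cells. Its matches lie just after the start, at positions 2 and 19.
Ifitm3: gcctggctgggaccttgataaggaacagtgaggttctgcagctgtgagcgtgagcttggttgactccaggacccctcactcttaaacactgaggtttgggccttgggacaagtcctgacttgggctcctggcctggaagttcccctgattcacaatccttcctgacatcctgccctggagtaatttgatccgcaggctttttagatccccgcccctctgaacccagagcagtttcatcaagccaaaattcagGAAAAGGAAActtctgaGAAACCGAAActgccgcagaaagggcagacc
Oasl1 (chr5:114922990-114923289, plus strand), Oasl2 (chr5:114896684-114896983, plus strand), Ifi44 (chr3:151749861-151750160, minus strand) and Irf7 (chr7:141266375-141266674, minus strand) are shown because they are among the genes that moved most or mark the list, and none holds the motif in this window.
Oasl1: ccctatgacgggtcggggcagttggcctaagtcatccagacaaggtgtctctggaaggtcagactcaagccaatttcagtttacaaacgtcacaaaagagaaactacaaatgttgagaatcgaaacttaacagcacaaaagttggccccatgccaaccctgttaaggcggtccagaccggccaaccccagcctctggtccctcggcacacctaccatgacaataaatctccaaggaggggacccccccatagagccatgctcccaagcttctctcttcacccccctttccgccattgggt
Oasl2: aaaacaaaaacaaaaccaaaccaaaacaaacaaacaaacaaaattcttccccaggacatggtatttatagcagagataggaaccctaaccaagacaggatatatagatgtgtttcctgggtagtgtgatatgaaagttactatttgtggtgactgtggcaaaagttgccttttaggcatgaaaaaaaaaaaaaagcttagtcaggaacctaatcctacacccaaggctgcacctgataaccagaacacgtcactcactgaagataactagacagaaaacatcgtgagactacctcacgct
Ifi44: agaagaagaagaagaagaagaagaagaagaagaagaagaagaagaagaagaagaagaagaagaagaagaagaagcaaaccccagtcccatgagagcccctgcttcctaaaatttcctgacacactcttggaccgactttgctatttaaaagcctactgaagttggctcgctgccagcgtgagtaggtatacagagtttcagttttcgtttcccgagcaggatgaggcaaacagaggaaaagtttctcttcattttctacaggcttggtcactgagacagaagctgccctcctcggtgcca
Irf7: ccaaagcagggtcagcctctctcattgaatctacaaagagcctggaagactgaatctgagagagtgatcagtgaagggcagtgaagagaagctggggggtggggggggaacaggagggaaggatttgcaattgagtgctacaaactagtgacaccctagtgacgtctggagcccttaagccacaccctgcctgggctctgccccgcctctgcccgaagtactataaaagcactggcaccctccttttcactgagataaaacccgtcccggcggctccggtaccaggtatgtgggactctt

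The promoter table held 32 of the 44 genes, with 38 promoters. The ISRE-like motif was in 18 of these 38 promoters (47.4%), against 1131 of 32851 promoters in the whole table (3.44%). By gene it was found for 18 of 32 listed genes (56.2%), against 1079 of 27025 genes in all (3.99%). The looser form GAAANNGAA, read on both strands, was in 19 of the 38 listed promoters and in 8.56% of all, and it added a match in the Ifi44 promoter. The stricter form, AGTTTC, any 2 bases and TTTC, also on both strands, was in 26.3% and 0.271%. The GAS motif TTCNNNGAA, which reads the same on both strands, was in 8 of 38 (21.1%) and in 8.30% of all promoters. By role, the ISRE-like motif was in 3 of 5 OAS promoters, 2 of 4 IFIT promoters, 4 of 5 GTPase promoters and 2 of 3 IFITM promoters. A match is a description of the sequence only, and no match says only that these letters are not in this window.

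The values below are levels: the log2 processed signal of a probe minus the log2 75th percentile of that array's non-control probes, so 0 is the 75th percentile of the array. Levels of different genes come from different probes and are not compared with each other. Differences are log2 fold changes between group means with their standard errors (SE), from 1 limma fit over the 12 arrays. A gene's SE is the same in all 6 comparisons, because the fit pools 1 spread over the 4 groups and the groups are of equal size. The spread of the listed genes differed between groups, as given below, and the pooled SE does not reflect that. "Called" means an adjusted p (Benjamini-Hochberg over the 18645 genes) under 0.05. In bulk RNA, fewer cells of a type and less RNA per cell cannot be told apart. The p-values measure the spread between these samples, and the precision is limited by 3 arrays a group. Between 57.1% and 64.9% of non-control spots were well above background on each array, and 0 were saturated. The 8 T cell markers looked at, Cd3e and Cd4 among them, were well above background on all 12 arrays. So were the macrophage markers Apoe and Csf1r, so this does not measure how pure the cells were.

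Some arrays stood apart for these genes before any groups were compared. Among the 43 genes tested, immunised replicate 3 was the highest of its group for 37 and immunised replicate 2 the lowest for 37. Th17 culture replicate 3 was the lowest of its group for 35 genes, and naive replicate 2 the highest of its group for 40. Replicate 3 was also the lowest of its group for 29 genes in transferred cells and for 26 in naive cells. The median within-group SD of the listed genes was 0.326 in immunised cells, 0.358 in transferred cells, 1.04 in the culture and 0.719 in naive cells. The same median over all genes tested was 0.206 in immunised cells, 0.259 in transferred cells, 0.350 in the culture and 0.249 in naive cells. The interferon-stimulated genes thus varied more between replicates than the typical gene in every group. Their spread was largest in the culture, where that of the typical gene was largest too. Arrays of the same replicate number shared a slide, and each group had a fixed position on its slide, so group and position cannot be told apart.

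With all 12 arrays in the fit, the comparisons with the Th17 culture gave the most calls among the listed genes. That order did not hold throughout for transferred cells against the culture. Without Th17 culture replicate 3 they had 15 calls, against 17 in transferred and 18 in immunised cells against naive cells. With only the 6 arrays compared, these counts were 10, 13 and 12. In the culture against naive cells, 3 of the 43 genes were called higher and 19 lower, where 19.7% of all genes were called higher and 20.3% lower (40.1% called in all). The median log2 fold change was -0.82 over the listed genes and -0.08 over all genes. In transferred cells against the culture, 12 were called higher and 2 lower, against 12.8% and 15.5% of all genes (28.3% in all), with a median of 0.20 for the list and -0.10 for all genes. Both directions together, 32.6% of the list was called there, near the share over all genes. In immunised cells against the culture, 20 were called higher and 0 lower, against 13.7% and 17.8% of all genes (31.5% in all), with a median of 1.0 for the list and -0.17 for all genes. These comparisons share the culture arrays, so they are not independent of each other.

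Cells from the CNS set against naive cells gave fewer calls among the listed genes than the genome-wide share. In transferred against naive cells, 4 were called higher and 6 lower, where 21.2% of all genes were higher and 26.5% lower (47.7% in all). The medians were -0.43 over the list and -0.12 over all genes. In immunised against naive cells, 7 were called higher and 1 lower, where 20.6% of all genes were higher and 27.8% lower (48.4% in all). The medians were 0.23 over the list and -0.19 over all genes. Between immunised and transferred cells 1 gene, Ifitm1, was called higher and 0 lower, where 1.85% of all genes were higher and 1.37% lower (3.22% in all). In that comparison 38 of the 43 log2 fold changes were positive, with a median of 0.68 against -0.04 over all genes.

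The counts depended on single arrays. Leaving out immunised replicate 3 left 12 calls in immunised cells against the culture in place of 20. In transferred cells against the culture, 8 genes were called higher without transferred replicate 2 in place of 12, and the list's median turned to -0.06 without Th17 culture replicate 3. Without naive replicate 3, 5 genes were called in immunised against naive cells in place of 8. Th17 culture replicate 3 also entered the other comparisons through the shared estimate of the spread. Without it, the calls numbered 17 in place of 10 in transferred against naive cells and 18 in place of 8 in immunised against naive cells. Between immunised and transferred cells they numbered 6 in place of 1, where the calls over all genes rose from 601 to 1290. Against naive cells the calls over all genes changed by no more than 1.5-fold. How far the listed genes fell short of the share over all genes against naive cells thus depended on this culture array.

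**Figure D1:**
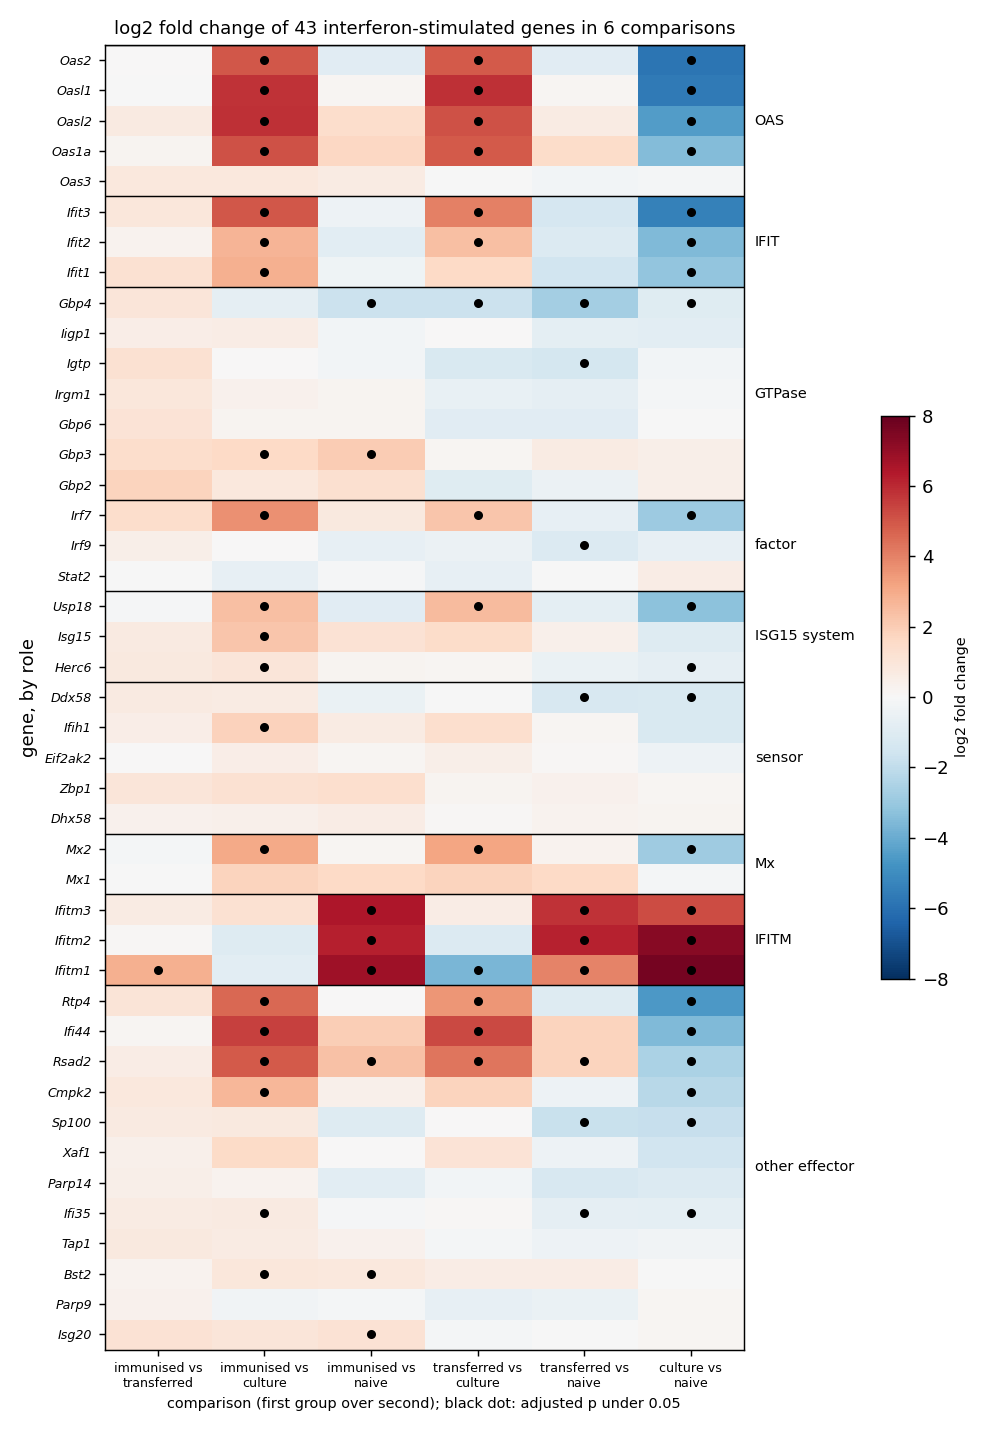
Log2 fold changes of the 43 tested genes (rows, grouped by role) in the 6 comparisons (columns), with a black dot where limma called the gene at an adjusted p under 0.05. Apart from Oas3, the OAS and IFIT rows are high in the columns set against the Th17 culture and low in culture against naive cells, and the 3 IFITM rows run the other way in culture against naive cells, with log2 fold changes of 5.22 to 7.67.

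The OAS enzymes make short 2′-5′ linked oligoadenylates that activate RNase L, and the OAS-like proteins are their relatives. Of the 5 tested OAS genes, 4 fell in the culture against naive cells, and the same 4 rose in both CNS groups against the culture. Over all genes, 20.3% fell in the culture against naive cells. Against the culture, 13.7% of all genes rose in immunised and 12.8% in transferred cells. The family's median log2 fold change was 5.09 in immunised cells against the culture, 4.93 in transferred cells against the culture and -4.47 in the culture against naive cells. Against naive cells it was 0.66 in immunised and 0.18 in transferred cells, with 0 of 5 called in each. The difference between these comparisons was not tested.

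Oas2 had levels of 2.57, 2.25 and 2.94 in immunised cells, 2.29, 2.60 and 2.78 in transferred cells, -2.18, -0.50 and -4.42 in the culture, and 2.74, 4.21 and 3.46 in naive cells. All 3 culture arrays lay below every other array, and both CNS groups lay within a narrow band. Its log2 fold change was 4.95 in immunised cells against the culture (adjusted p = 0.000917), 4.93 in transferred cells against the culture (adjusted p = 0.00109) and -5.84 in the culture against naive cells (SE 0.77, adjusted p = 0.000209). Neither CNS group passed the test against naive cells, at -0.88 for immunised (adjusted p = 0.368) and -0.91 for transferred cells (adjusted p = 0.362).

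Oasl1, which in mice represses translation of Irf7 mRNA, had levels of 2.28, 1.73 and 3.38 in immunised cells, 2.44, 2.44 and 2.62 in transferred cells, -3.28, -2.90 and -3.84 in the culture, and 1.85, 3.15 and 1.97 in naive cells. The culture arrays stood far below the rest, while the other groups overlapped. The difference was 5.80 in immunised cells against the culture (adjusted p = 1.07e-05), 5.84 in transferred cells against it (adjusted p = 1.41e-05) and -5.66 in the culture against naive cells (SE 0.45, adjusted p = 7.9e-06). Oasl2 had levels of 2.82, 2.25 and 3.23 in immunised cells, 1.63, 2.69 and 1.77 in transferred cells, -2.74, -0.95 and -5.58 in the culture, and 0.86, 2.58 and 0.70 in naive cells. It was well above background on 2 of the 3 culture arrays, and the culture was again lowest with no overlap. It rose by 5.85 in immunised cells against the culture (adjusted p = 0.00122) and by 5.12 in transferred cells against it (adjusted p = 0.00304), and the difference between culture and naive cells was -4.47 (SE 0.96, adjusted p = 0.00401).

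The active synthetase Oas1a had levels of 4.41, 3.90 and 4.91 in immunised cells, 3.76, 4.54 and 4.32 in transferred cells, 0.26, 0.56 and -2.87 in the culture, and 2.24, 3.55 and 2.48 in naive cells. It was the OAS gene in which every CNS array lay above every naive array, but that difference missed the threshold, at 1.65 for immunised (adjusted p = 0.0986) and 1.45 for transferred cells (adjusted p = 0.145). It passed without culture replicate 3 (adjusted p = 0.00505 for immunised and 0.00958 for transferred cells) and when only the 6 arrays compared were fitted (adjusted p = 0.0171 and 0.0238). Against the culture the rise was 5.09 in immunised (adjusted p = 0.000737) and 4.89 in transferred cells (adjusted p = 0.00109), and the culture differed from naive cells by -3.44 (SE 0.77, adjusted p = 0.00505). Oas3 was called in no comparison. Its levels were 0.26, -0.03 and 0.63 in immunised cells, -0.65, -0.19 and -0.89 in transferred cells, -0.18, 0.00 and -1.43 in the culture, and -0.80, 0.47 and -0.78 in naive cells, and the groups overlapped except that immunised cells lay above transferred cells. The untested Oas1g was at least 1.27-fold higher in transferred cells than in the culture, and it was well above background on 2 of the 3 transferred arrays. This bound sets the mean of all 3 transferred arrays against, for each culture array, the higher of the lowest signal among probes well above background and the dim probe's own signal.

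**Figure D2:**
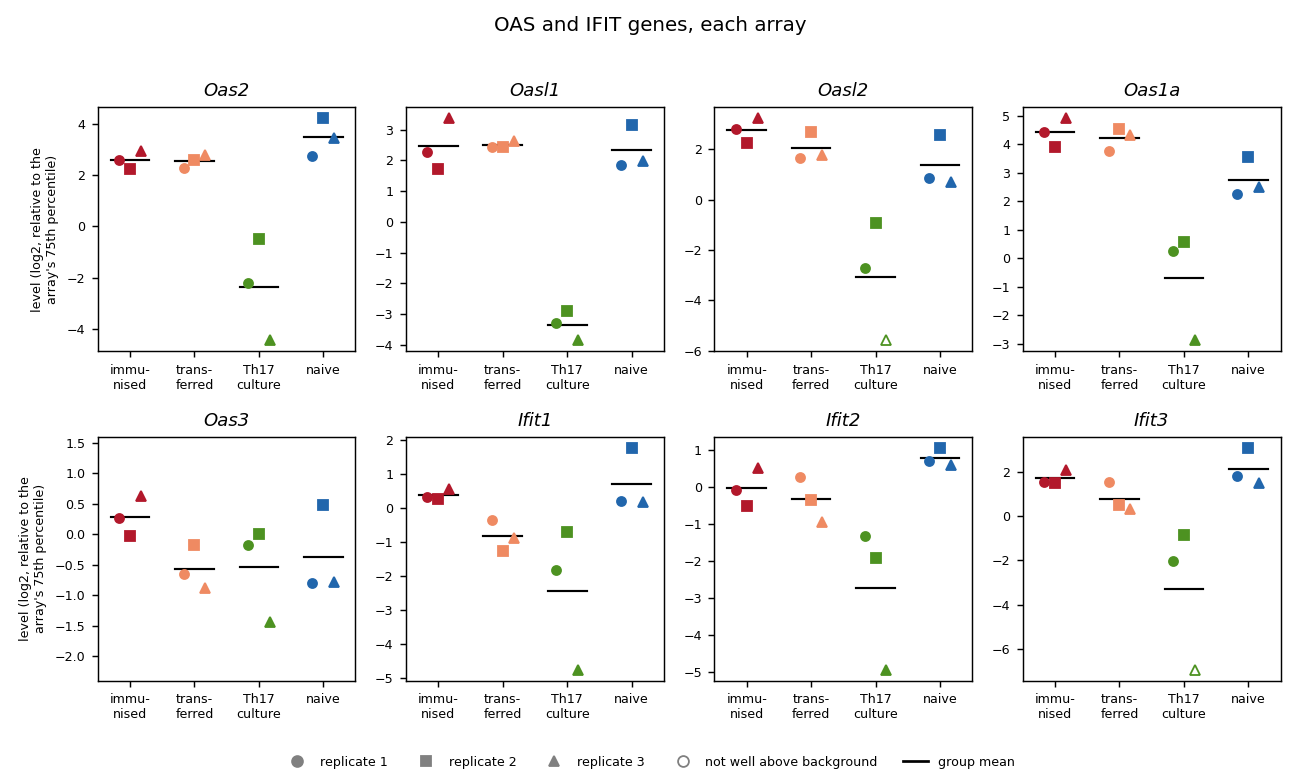
Levels (log2 relative to the array's 75th percentile) of 5 OAS and 3 IFIT genes on each array, with symbols for replicates, open symbols for arrays where the probe was not well above background, and bars for group means. In Oas2, Oasl1, Oasl2 and Oas1a the 3 culture points lie below all others, while the Oas3 points overlap.

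IFIT proteins bind viral RNA that lacks the methylation of host caps, and Ifit3 partners Ifit1. All 3 IFIT genes fell in the culture against naive cells, with a family median of -3.53. All 3 rose in immunised cells against the culture (median 2.82), and 2 of 3 did so in transferred cells (median 2.40). Over all genes, 20.3% fell in the culture against naive cells. Against the culture, 13.7% of all genes rose in immunised and 12.8% in transferred cells. Against naive cells 0 of 3 were called in either CNS group, with medians of -0.44 for immunised and -1.35 for transferred cells. These counts depended on which arrays shared the estimate of the spread. When only the 6 arrays compared were fitted, 0 of 3 were called against the culture in immunised cells (Ifit1 adjusted p = 0.082, Ifit2 0.0819, Ifit3 0.056) and 0 of 3 in transferred cells (Ifit2 adjusted p = 0.126, Ifit3 0.111), while 2 of 3 were still called lower in the culture against naive cells. In transferred against naive cells that fit called Ifit1 and Ifit2 lower (adjusted p = 0.0404 and 0.0305), and without Th17 culture replicate 3 all 3 were called lower (Ifit1 adjusted p = 0.0174, Ifit2 0.0215, Ifit3 0.0406).

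Ifit3 had levels of 1.51, 1.5 and 2.07 in immunised cells, 1.55, 0.47 and 0.32 in transferred cells, -2.03, -0.88 and -6.94 in the culture, and 1.82, 3.08 and 1.49 in naive cells. Culture replicate 3, on which the probe was not well above background, lay far under the other culture arrays. The gene rose by 4.97 in immunised cells against the culture (adjusted p = 0.0112) and by 4.06 in transferred cells against it (adjusted p = 0.0304), and the culture differed from naive cells by -5.41 (SE 1.22, adjusted p = 0.00537). The call in transferred cells ended without transferred replicate 1, 2 or 3 (adjusted p = 0.0879, 0.0638 and 0.0628).

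Ifit2 had levels of -0.09, -0.50 and 0.51 in immunised cells, 0.28, -0.34 and -0.93 in transferred cells, -1.33, -1.93 and -4.94 in the culture, and 0.70, 1.07 and 0.61 in naive cells. The culture did not overlap with any other group. It rose by 2.71 in immunised (adjusted p = 0.0211) and by 2.40 in transferred cells (adjusted p = 0.0373) against the culture, which differed from naive cells by -3.53 (SE 0.76, adjusted p = 0.0041). The call in immunised cells ended without immunised replicate 1 or 3 (adjusted p = 0.0547 and 0.0747). That in transferred cells ended without transferred replicate 1, 2 or 3 (adjusted p = 0.11, 0.0846 and 0.0559), and without naive replicate 1 or immunised replicate 1 (adjusted p = 0.0512 and 0.0538). Ifit1 had levels of 0.34, 0.28 and 0.57 in immunised cells, -0.34, -1.27 and -0.87 in transferred cells, -1.82, -0.72 and -4.75 in the culture, and 0.21, 1.78 and 0.17 in naive cells. Transferred and culture arrays overlapped, and their difference of 1.60 was not called (adjusted p = 0.184). It rose by 2.82 in immunised cells against the culture (adjusted p = 0.0271), a call that ended without immunised replicate 1, 2 or 3 (adjusted p = 0.0667, 0.0595 and 0.0763), and the culture differed from naive cells by -3.15 (SE 0.84, adjusted p = 0.0129).

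The GTPases, read from their brightest probes, did not follow the OAS and IFIT genes. A second, dimmer probe of Iigp1 moved in the same directions as those genes in the comparisons with the culture, as given below. Guanylate-binding proteins (Gbp2, Gbp3, Gbp4, Gbp6) and the immunity-related GTPases Igtp, Irgm1 and Iigp1 attack the membranes of vacuoles that hold pathogens. Of these 7 genes, 0 rose and 1 fell in transferred cells against the culture (median -0.88), 1 rose in immunised cells against the culture (median 0.35), and 1 fell in the culture against naive cells (median -0.16). The 1 of 7 called in each is 14.3%. Over all genes, 15.5% fell, 13.7% rose and 20.3% fell in those comparisons, so these counts are near or under those shares. Between immunised and transferred cells all 7 log2 fold changes were positive, at 0.52 to 1.77 with a median of 1.11, but 0 of 7 were called by limma. That median was 0.65, 0.97 and 1.77 on slides 1, 2 and 3, each holding 1 array of each group. When only the 6 arrays of these CNS groups were fitted, Gbp2, Gbp3 and Gbp4 passed the test (adjusted p = 0.03, 0.0264 and 0.035).

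Gbp4 had levels of 1.84, 2.0 and 2.23 in immunised cells, 1.22, 1.03 and 0.90 in transferred cells, 2.94, 3.07 and 2.23 in the culture, and 3.31, 4.58 and 3.33 in naive cells. Transferred arrays were the lowest and naive arrays the highest, with no overlap of either with another group. It fell in transferred cells against the culture, at -1.70 (adjusted p = 0.00447), and against naive cells, at -2.69 (adjusted p = 0.000129), and in immunised against naive cells, at -1.71 (adjusted p = 0.00215). The culture differed from naive cells by -0.99 (SE 0.34, adjusted p = 0.0404), and this call ended in 9 of the 12 fits that left out an array, all except those without naive replicate 1, naive replicate 3 or culture replicate 2, with adjusted p up to 0.124 without culture replicate 3.

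Gbp3 went the other way. Its levels were 3.26, 3.07 and 3.77 in immunised cells, 1.97, 2.08 and 1.78 in transferred cells, 2.26, 2.26 and 0.80 in the culture, and 1.2, 2.20 and 0.54 in naive cells, so every immunised array lay above every other array. It rose in immunised cells against naive cells by 2.06 (adjusted p = 0.00422) and against the culture by 1.60 (SE 0.46, adjusted p = 0.0241). The call against the culture ended without culture replicate 3 (adjusted p = 0.068) and without immunised replicate 1 or 3 (adjusted p = 0.0565 and 0.0867). Gbp2 had levels of 4.64, 4.22 and 5.07 in immunised cells, 2.92, 3.21 and 2.50 in transferred cells, 4.10, 4.51 and 2.86 in the culture, and 3.06, 4.56 and 2.46 in naive cells. Immunised arrays lay above transferred arrays, by 1.77 (SE 0.54, adjusted p = 0.107), but the culture and naive arrays spanned both, and the gene was called in no comparison. Igtp, with levels of 4.91, 4.91 and 4.97 in immunised cells, 4.14, 3.77 and 3.21 in transferred cells, 5.58, 5.35 and 3.78 in the culture and 4.68, 6.25 and 4.48 in naive cells, fell in transferred against naive cells, at -1.43 (SE 0.53, adjusted p = 0.0467). That call ended in 9 of 12 fits that left out an array, all except those without culture replicate 1, culture replicate 3 or naive replicate 3, with adjusted p up to 0.171 without naive replicate 2.

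**Figure D3:**
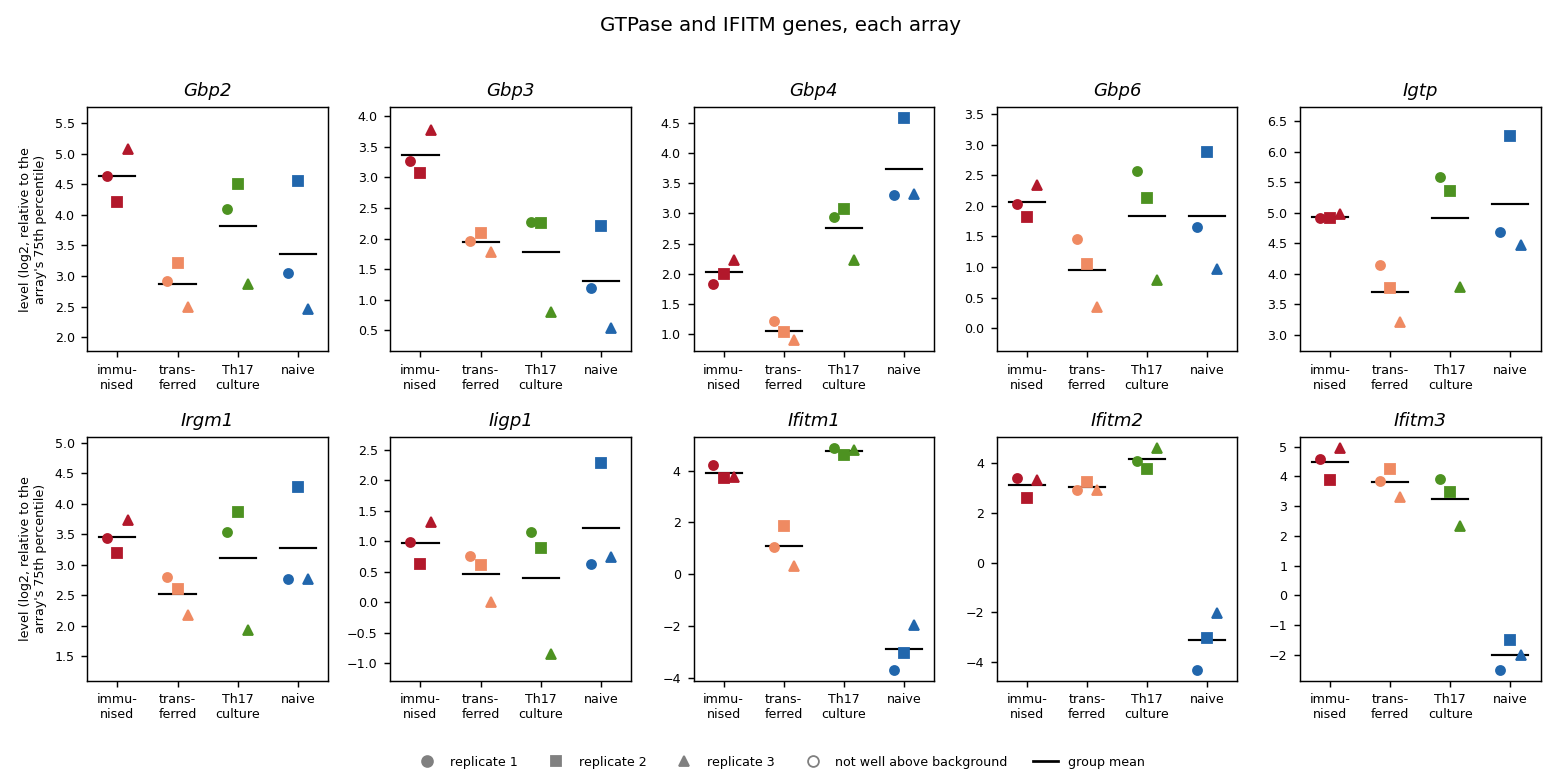
Levels (log2 relative to the array's 75th percentile) of the 7 GTPase and 3 IFITM genes on each array, with symbols for replicates and bars for group means. In each GTPase panel the immunised mean lies above the transferred mean, and in the 3 IFITM panels the naive points lie below all others.

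IFITM proteins sit in membranes and block the fusion of enveloped viruses with the cell. All 3 rose in immunised, transferred and cultured cells against naive cells, where 20.6%, 21.2% and 19.7% of all genes rose. In the culture against naive cells they were the 3 listed genes called higher, where 19 others were called lower. The family medians were 6.47 in immunised against naive, 5.79 in transferred against naive and 7.28 in culture against naive cells. All naive arrays were still well above background for these probes.

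Ifitm1 had levels of 4.23, 3.73 and 3.76 in immunised cells, 1.06, 1.88 and 0.33 in transferred cells, 4.89, 4.61 and 4.81 in the culture, and -3.69, -3.05 and -1.96 in naive cells. The 4 groups did not overlap, with the culture highest, then immunised, transferred and naive cells. It was the only listed gene called between the CNS groups, 2.82 higher in immunised than in transferred cells (SE 0.45, adjusted p = 0.00852), and this call stood without each array and under every alternative tried. It fell in transferred cells against the culture, at -3.68 (adjusted p = 0.00022). The rise over naive cells was 6.81 in immunised cells (adjusted p = 2.01e-06), 3.99 in transferred cells (adjusted p = 5.87e-05) and 7.67 in the culture (adjusted p = 1.13e-06).

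Ifitm2 had levels of 3.41, 2.61 and 3.34 in immunised cells, 2.94, 3.24 and 2.93 in transferred cells, 4.08, 3.77 and 4.62 in the culture, and -4.30, -3.03 and -2.02 in naive cells. The culture lay above both CNS groups without overlap, but neither difference was called, at -1.04 for immunised (adjusted p = 0.128) and -1.12 for transferred cells (adjusted p = 0.11). Ifitm3 had levels of 4.59, 3.89 and 4.96 in immunised cells, 3.85, 4.25 and 3.31 in transferred cells, 3.92, 3.46 and 2.32 in the culture, and -2.49, -1.49 and -1.98 in naive cells. Here the culture was the lowest of the 3 activated groups by mean, though its arrays overlapped with those of both CNS groups. Over naive cells it rose by 6.47 in immunised cells (adjusted p = 2.51e-06), by 5.79 in transferred cells (adjusted p = 5.01e-06) and by 5.22 in the culture (SE 0.45, adjusted p = 1.29e-05). The matching rise of Ifitm2 was 6.24 in immunised cells (adjusted p = 5.15e-06), 6.16 in transferred cells (adjusted p = 5.71e-06) and 7.28 in the culture (SE 0.48, adjusted p = 2.45e-06).

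Among the transcription factors, Irf7, which drives interferon-alpha genes, moved with the OAS genes, whereas the ISGF3 subunits Irf9 and Stat2 did not. Irf7 had levels of 1.81, 1.60 and 2.54 in immunised cells, 0.86, 1.17 and -0.30 in transferred cells, -1.12, -0.85 and -3.04 in the culture, and 1.09, 1.82 and 0.77 in naive cells. The culture lay below every other group. It rose by 3.66 in immunised cells against the culture (adjusted p = 0.00104) and by 2.25 in transferred cells against it (adjusted p = 0.0163), and the culture differed from naive cells by -2.90 (SE 0.58, adjusted p = 0.00281). Without transferred replicate 2 the call in transferred cells ended (adjusted p = 0.0604). The difference between the CNS groups was 1.41 and was not called (adjusted p = 0.21).

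Irf9 had levels of 2.92, 2.95 and 2.78 in immunised cells, 2.47, 2.53 and 2.22 in transferred cells, 3.01, 3.05 and 2.51 in the culture, and 3.07, 4.10 and 3.36 in naive cells. Naive arrays were highest, and the gene fell in transferred against naive cells, at -1.10 (SE 0.26, adjusted p = 0.00504). Stat2, with levels of 2.35, 2.26 and 2.38 in immunised cells, 2.48, 2.24 and 2.33 in transferred cells, 2.74, 3.30 and 2.90 in the culture and 2.15, 3.04 and 1.98 in naive cells, was called in no comparison. Its culture arrays lay above every CNS array but overlapped with the naive arrays.

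ISG15 is a ubiquitin-like protein that is attached to other proteins, in mice mainly by the ligase Herc6, and Usp18 removes it and also damps the type I receptor. Usp18 had levels of 1.01, 0.78 and 1.53 in immunised cells, 1.26, 1.18 and 1.26 in transferred cells, -2.24, -1.51 and -0.05 in the culture, and 1.77, 2.64 and 1.59 in naive cells. Naive arrays were highest and culture arrays lowest, and here culture replicate 3 was the highest of its group. It rose by 2.38 in immunised (adjusted p = 0.00399) and by 2.50 in transferred cells (adjusted p = 0.00349) against the culture, which differed from naive cells by -3.27 (SE 0.48, adjusted p = 0.000403).

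Isg15 had levels of 4.39, 4.35 and 5.43 in immunised cells, 3.77, 3.77 and 4.40 in transferred cells, 2.74, 3.86 and 0.87 in the culture, and 3.31, 4.23 and 3.1 in naive cells. The culture arrays were spread widely and overlapped with transferred and naive arrays. It rose in immunised cells against the culture by 2.23 (SE 0.64, adjusted p = 0.0237), a call that ended without immunised replicate 3 (adjusted p = 0.0893), and transferred cells did not pass the test at 1.49 (adjusted p = 0.11). Herc6 had levels of -0.26, -0.31 and -0.16 in immunised cells, -0.85, -1.11 and -1.12 in transferred cells, -1.22, -0.71 and -1.72 in the culture, and -0.73, -0.16 and -0.56 in naive cells. Immunised arrays lay above all transferred and culture arrays. It rose in immunised cells against the culture by 0.97 (SE 0.25, adjusted p = 0.0131) and fell in the culture against naive cells, at -0.73 (SE 0.25, adjusted p = 0.0369). The fall in the culture ended in 7 of 12 fits that left out an array, namely without naive replicate 2 (adjusted p = 0.126) or 3, culture replicate 1 or 3, transferred replicate 2, or immunised replicate 1 or 2.

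The listed sensors of viral nucleic acid were Ddx58 (RIG-I), Ifih1 (MDA5), Dhx58 (LGP2), Zbp1 and Eif2ak2 (PKR). Of these 5, 1 fell in the culture against naive cells and 1 rose in immunised cells against the culture. That is 20% in each, near the shares over all genes, where 20.3% fell in the first comparison and 13.7% rose in the second. Ddx58 had levels of 2.38, 2.37 and 2.49 in immunised cells, 1.64, 1.93 and 1.5 in transferred cells, 2.09, 1.82 and 1.30 in the culture, and 2.88, 3.37 and 2.60 in naive cells. Naive arrays were highest without overlap. It fell in the culture against naive cells, at -1.22 (SE 0.25, adjusted p = 0.00289), and in transferred against naive cells, at -1.26 (adjusted p = 0.0019). Ifih1 had levels of 1.39, 0.97 and 1.77 in immunised cells, 0.78, 1.25 and 0.57 in transferred cells, 0.17, 0.45 and -1.98 in the culture, and 0.49, 1.32 and 0.42 in naive cells. It rose in immunised cells against the culture by 1.83 (SE 0.55, adjusted p = 0.029), and the call ended without immunised replicate 1 or 3 (adjusted p = 0.0738 and 0.0969). Zbp1, at 3.18, 2.79 and 3.88 in immunised cells, 2.22, 2.73 and 1.92 in transferred cells, 3.01, 2.67 and 0.60 in the culture and 2.16, 2.56 and 1.16 in naive cells, was called in no comparison and its groups overlapped, apart from immunised cells against transferred and against naive cells.

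The Mx proteins are large GTPases that trap viral components, and Mx1 is disrupted in many laboratory mouse strains. Mx2 had levels of -0.48, -0.48 and -0.13 in immunised cells, 0.08, -0.75 and 0.01 in transferred cells, -3.12, -1.51 and -5.46 in the culture, and -0.94, 0.42 and -0.96 in naive cells. The culture lay below all other arrays. It rose by 3.0 in immunised (adjusted p = 0.0158) and by 3.15 in transferred cells (adjusted p = 0.0144) against the culture, which differed from naive cells by -2.87 (SE 0.79, adjusted p = 0.0151). The call in immunised cells ended without immunised replicate 3 (adjusted p = 0.0522) and that against naive cells without naive replicate 2 (adjusted p = 0.0548). Mx1 had levels of 0.61, 0.39 and 0.85 in immunised cells, 1.37, 0.25 and 0.28 in transferred cells, -0.56, 0.17 and -3.09 in the culture, and -1.30, 0.12 and -1.79 in naive cells. Both CNS groups lay above both other groups without overlap, but its 6 comparisons all missed the threshold, with 1.77 in immunised (adjusted p = 0.0987) and 1.79 in transferred cells (adjusted p = 0.102) against the culture. Against naive cells its rise of 1.61 in immunised and 1.62 in transferred cells passed without culture replicate 3 (adjusted p = 0.0188 and 0.0181), and that in immunised cells also in the fit of their 6 arrays alone (adjusted p = 0.0321).

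Of the 12 other effectors, 6 fell in the culture against naive cells, 6 rose in immunised cells against the culture and 3 rose in transferred cells against it. These are 50%, 50% and 25%, where the shares over all genes were 20.3%, 13.7% and 12.8%. Ifi44, a list marker known for antiproliferative activity, had levels of -1.25, -1.97 and -0.30 in immunised cells, -1.65, -0.46 and -1.95 in transferred cells, -8.23, -6.91 and -4.86 in the culture, and -3.81, -1.70 and -3.92 in naive cells. It was well above background on 1 of the 3 culture arrays, replicate 3, and the culture did not overlap with the other groups. It rose by 5.49 in immunised (adjusted p = 0.000967) and by 5.31 in transferred cells (adjusted p = 0.00136) against the culture, which differed from naive cells by -3.52 (SE 0.87, adjusted p = 0.00848). The differences from naive cells were 1.97 for immunised (adjusted p = 0.0824) and 1.79 for transferred cells (adjusted p = 0.113).

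Rsad2 (viperin), an enzyme that makes a chain-terminating nucleotide, had levels of 0.73, 0.41 and 1.75 in immunised cells, 0.81, 0.15 and 0.21 in transferred cells, -3.51, -2.84 and -5.41 in the culture, and -1.72, -0.33 and -2.10 in naive cells. It was ordered CNS groups over naive cells over the culture, with overlap between the CNS groups alone. Against the culture it rose by 4.88 in immunised (adjusted p = 0.000355) and by 4.31 in transferred cells (adjusted p = 0.000905), and the culture differed from naive cells by -2.54 (SE 0.66, adjusted p = 0.0109). Against naive cells it rose by 2.34 in immunised (adjusted p = 0.0134) and by 1.77 in transferred cells (adjusted p = 0.0459). The rise in immunised cells ended without naive replicate 3 or immunised replicate 3 (adjusted p = 0.053 and 0.0583). That in transferred cells ended in 8 of 12 fits that left out an array, all except those without naive replicate 2, culture replicate 2 or 3, or immunised replicate 3, with adjusted p up to 0.15 without naive replicate 3.

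Rtp4, a chaperone of membrane receptors, had levels of 3.58, 3.14 and 4.13 in immunised cells, 2.73, 2.95 and 1.99 in transferred cells, 0.71, 0.51 and -4.17 in the culture, and 3.06, 4.62 and 3.16 in naive cells. The culture was lowest, and immunised and naive cells had the same mean, with a log2 fold change of 0.00. It rose by 4.60 in immunised (adjusted p = 0.00842) and by 3.54 in transferred cells (adjusted p = 0.031) against the culture, which differed from naive cells by -4.60 (SE 1.07, adjusted p = 0.00633). The call in transferred cells ended without transferred replicate 1, 2 or 3 (adjusted p = 0.0744, 0.0864 and 0.0584).

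**Figure D4:**
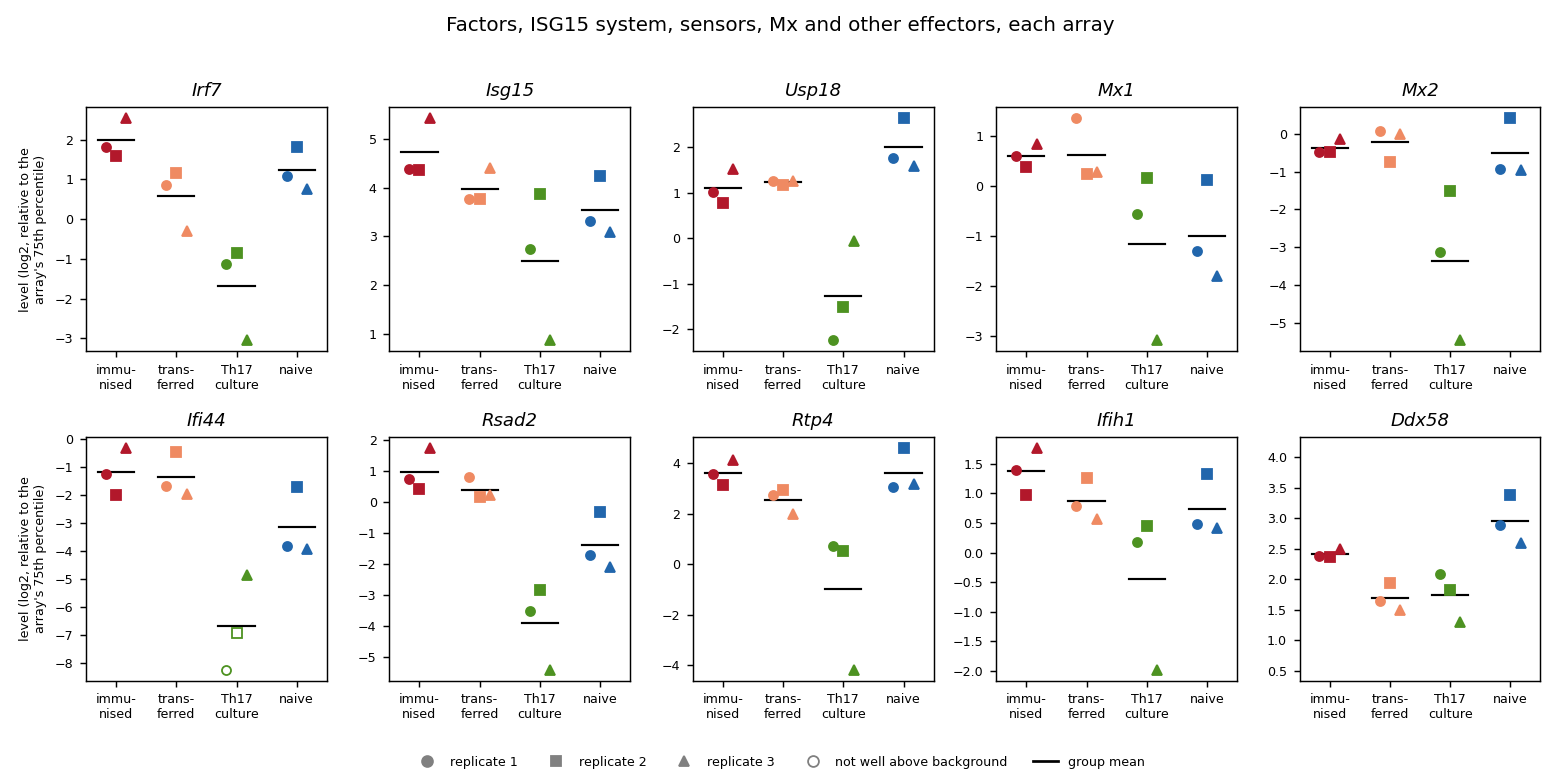
Levels (log2 relative to the array's 75th percentile) of Irf7, Isg15, Usp18, Mx1, Mx2, Ifi44, Rsad2, Rtp4, Ifih1 and Ddx58 on each array, with symbols for replicates, open symbols for arrays where the probe was not well above background, and bars for group means. The culture points lie lowest for Irf7, Usp18, Mx2, Ifi44, Rsad2 and Rtp4, and the naive points lie highest for Ddx58.

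Smaller differences were called for Cmpk2, Ifi35, Sp100, Bst2 and Isg20. Ifi35 fell in the culture (-0.81, SE 0.18, adjusted p = 0.00458) and in transferred cells (-0.74, adjusted p = 0.00595) against naive cells and rose in immunised cells against the culture (0.72, adjusted p = 0.0113). Sp100, a nuclear body protein, fell in the culture (-1.83, SE 0.41, adjusted p = 0.00508) and in transferred cells (-1.77, adjusted p = 0.00486) against naive cells. Cmpk2, a mitochondrial nucleotide kinase, rose in immunised cells against the culture (2.65, adjusted p = 0.0167) and fell in the culture against naive cells (-2.23, SE 0.71, adjusted p = 0.0281). Its rise ended without immunised replicate 3 (adjusted p = 0.0534) and its fall without naive replicate 1 or 2 (adjusted p = 0.0524 and 0.0916). Bst2 (tetherin), which holds budding virus on the cell, rose in immunised cells against the culture (0.88, SE 0.25, adjusted p = 0.0214) and against naive cells (0.87, adjusted p = 0.014). These calls ended without immunised replicate 3 or culture replicate 1 (adjusted p = 0.0653 and 0.062) and without naive replicate 3 (adjusted p = 0.0532). The exonuclease Isg20 rose in immunised against naive cells (1.16, SE 0.39, adjusted p = 0.0294), a call that ended without any of the 3 immunised arrays or without naive replicate 1 or 3, with adjusted p up to 0.107 without naive replicate 3.

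In all, 29 of the 43 genes were called in at least 1 comparison and 14 in none, namely Stat2, Mx1, Zbp1, Dhx58, Eif2ak2, Parp9, Parp14, Tap1, Xaf1, Oas3, Gbp2, Gbp6, Iigp1 and Irgm1. For some of these the choice of probe mattered. Parp9, an ADP-ribosyltransferase, had a log2 fold change of -0.31 in immunised and -0.66 in transferred cells against the culture on the brightest probe, and 2.96 and 2.55 on its second probe. Iigp1 gave 0.58 in immunised and 0.06 in transferred cells against the culture on the brightest probe, and 2.05 and 1.40 on its second. In the culture against naive cells these Iigp1 probes gave -0.82 and -1.72. Zbp1 gave 0.13 in the culture against naive cells on the brightest probe and -1.72 on its second. Gbp6 gave 1.11 in immunised against transferred cells on the brightest probe and 0.02 on its second.

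Across the 12 arrays the families differed in how closely their genes moved together. The median pairwise Pearson r was 0.967 over the 3 IFIT genes, 0.905 over the 5 OAS genes, 0.757 over the 7 GTPases and 0.482 over all 43 genes, whose pairs ran from -0.79 to 0.98. Set against the median of the other genes, Xaf1 (0.93), Ifih1 (0.91) and Ifit1 (0.91) had the highest r, and Ifitm2 (-0.34), Ifitm1 (-0.27), Stat2 (-0.10) and Ifitm3 (-0.02) the lowest. These values describe 12 arrays that share 4 groups and their scaling.

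The ligands of the pathway were measured on the same arrays. Ifnb1, which encodes interferon-beta, had levels of -4.57, -2.55 and -0.21 in immunised cells, -2.0, -3.55 and 0.02 in transferred cells, -8.22, -6.81 and -7.81 in the culture, and -7.46, -7.06 and -7.99 in naive cells. It was well above background on all 6 CNS arrays and on 0 of the 6 culture and naive arrays. It was at least 10.01-fold higher in immunised cells than in the culture and at least 8.74-fold higher in immunised than in naive cells. In transferred cells it was at least 15.2-fold higher than in the culture and at least 13.3-fold higher than in naive cells. Limma called these differences, but the gene entered the test only through the CNS groups. The fit used culture and naive signals that were not well above background, so its p-values do not test these bounds and are left out. The interferon-alpha genes Ifna1, Ifna2 and Ifna5 were not called, and Ifna4 was well above background on 0 arrays. The counts called in each list of pathway genes stand beside the shares called over all genes, which were 40.1% in the culture against naive cells, 28.3% in transferred cells against the culture and 31.5% in immunised cells against it. Of the 6 ligand genes tested, 3 rose in immunised and 2 in transferred cells against the culture, counting Ifnb1 in each. In the culture against naive cells 0 of 6 were called.

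Ifng, which encodes interferon-gamma, had levels of 5.04, 5.06 and 5.85 in immunised cells, 4.81, 3.46 and 3.60 in transferred cells, 1.42, 4.26 and -4.22 in the culture, and 1.03, -0.09 and -0.59 in naive cells. Culture replicate 2 reached the range of the CNS arrays, while culture replicate 3, on which most listed genes were also lowest, lay below every other array. It rose in immunised cells against the culture by 4.83 (SE 1.60, adjusted p = 0.042) and against naive cells by 5.20 (adjusted p = 0.0209). The call against the culture held in 2 of 12 fits that left out an array, those without culture replicate 2 or 3, and reached an adjusted p of 0.114 in the others. The call against naive cells ended without naive replicate 2 or 3 or immunised replicate 3 (adjusted p up to 0.0653). Transferred cells missed the threshold, at 3.47 against the culture (adjusted p = 0.133) and 3.84 against naive cells (adjusted p = 0.0711). The interferon-lambda gene Il28b rose against the culture by 2.26 in immunised cells (SE 0.40, adjusted p = 0.00199) and by 1.30 in transferred cells (adjusted p = 0.0338), and this second rise ended without culture replicate 1 or 2 or transferred replicate 1 or 2 (adjusted p up to 0.122).

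Of the 9 receptor and kinase genes, 3 rose and 3 fell in the culture against naive cells, 5 rose and 1 fell in immunised cells against the culture, and 3 rose in transferred cells against it. The receptor chain Ifnar1 fell in all 3 activated groups against naive cells, by 1.03 in immunised (adjusted p = 0.000732), by 1.16 in transferred (adjusted p = 0.000336) and by 1.24 in cultured cells (SE 0.17, adjusted p = 0.00027). The other chain, Ifnar2, rose against naive cells by 1.60 in immunised cells (adjusted p = 0.000409), by 1.64 in transferred cells (adjusted p = 0.000333) and by 0.85 in the culture (SE 0.24, adjusted p = 0.0168), and the rise in the culture ended without naive replicate 3 (adjusted p = 0.0535). Jak1 fell in transferred cells (-1.23, adjusted p = 0.00157) and in the culture (-1.24, SE 0.23, adjusted p = 0.00189) against naive cells. Tyk2 was 0.91 higher in immunised than in transferred cells (SE 0.16, adjusted p = 0.0125), a call that ended without transferred replicate 3 or immunised replicate 1 or 2 (adjusted p up to 0.066).

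Of the 7 other transcription factors of the pathway, 3 rose and 2 fell in the culture against naive cells, 3 rose in immunised cells and 2 in transferred cells against the culture. Irf8 and Irf5, both also abundant in myeloid cells, rose with the CNS groups. Both were already higher on every culture array than on every naive array. Irf5 had levels of -0.84, -0.55 and -1.83 in the culture and -3.73, -3.87 and -3.62 in naive cells. Those of Irf8 were 1.01, 0.93 and 2.32 in the culture and 0.01, 0.66 and -0.68 in naive cells. Irf5 was 3.42 higher in immunised cells (adjusted p = 7.43e-05) and 3.17 higher in transferred cells (SE 0.36, adjusted p = 0.000138) than in the culture. Irf8 was 2.37 higher in immunised cells (adjusted p = 0.00227) and 2.63 higher in transferred cells (SE 0.43, adjusted p = 0.00146) than in the culture. Irf3, the factor that sensors activate, fell against naive cells by 0.95 in immunised (adjusted p = 0.000431), by 1.25 in transferred (adjusted p = 6.9e-05) and by 1.12 in cultured cells (SE 0.14, adjusted p = 0.000173).

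Of the 10 sensing and adaptor genes, 3 rose and 1 fell in transferred cells against the culture, 2 rose and 2 fell in immunised cells against it, and 2 rose and 2 fell in the culture against naive cells. The 4 of 10 called in each comparison are 40% of the list, which is near the share over all genes in the culture against naive cells (40.1%) and not far from it in transferred (28.3%) and immunised cells (31.5%) against the culture. The double-stranded RNA receptor Tlr3 was well above background on the CNS arrays alone. It was at least 2.76-fold higher in immunised cells and at least 2.48-fold higher in transferred cells than in the culture. Like Ifnb1, it entered the test only through the CNS groups. It is counted among the genes that rose, but its p-values rest on dim culture signals, do not test these bounds and are left out. Tlr7, a receptor for single-stranded RNA, rose by 2.53 in immunised cells (adjusted p = 0.000515) and by 2.52 in transferred cells (SE 0.36, adjusted p = 0.000619) against the culture. Ticam1, the adaptor of Tlr3, was highest in the culture, which differed from naive cells by 1.79 (SE 0.17, adjusted p = 2.42e-05). The kinase gene Ikbke fell in the culture against naive cells, at -1.53 (SE 0.22, adjusted p = 0.000375).

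Of the 7 negative regulators, 3 rose and 3 fell in the culture against naive cells. Socs1, which blocks JAK kinases, ran opposite to the OAS genes, with levels of 2.58, 3.0 and 2.60 in immunised cells, 2.77, 2.54 and 2.73 in transferred cells, 4.34, 4.37 and 4.28 in the culture, and 2.37, 2.97 and 1.79 in naive cells. The culture lay above every other array. The log2 fold change was -1.61 in immunised cells against the culture (adjusted p = 0.00111), -1.65 in transferred cells against it (adjusted p = 0.00108) and 1.96 in the culture against naive cells (SE 0.26, adjusted p = 0.000207). The phosphatase gene Ptpn6 rose by 1.29 in immunised cells (adjusted p = 0.000699) and by 1.03 in transferred cells (adjusted p = 0.00298) against the culture, which differed from naive cells by -1.11 (SE 0.19, adjusted p = 0.00114). Trex1, a nuclease that clears cytosolic DNA, rose by 1.47 in immunised (adjusted p = 0.000371) and by 0.82 in transferred cells (SE 0.20, adjusted p = 0.012) against the culture. The RNA editing enzyme gene Adar fell in the culture against naive cells, at -1.2 (SE 0.23, adjusted p = 0.002).

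**Figure D5:**
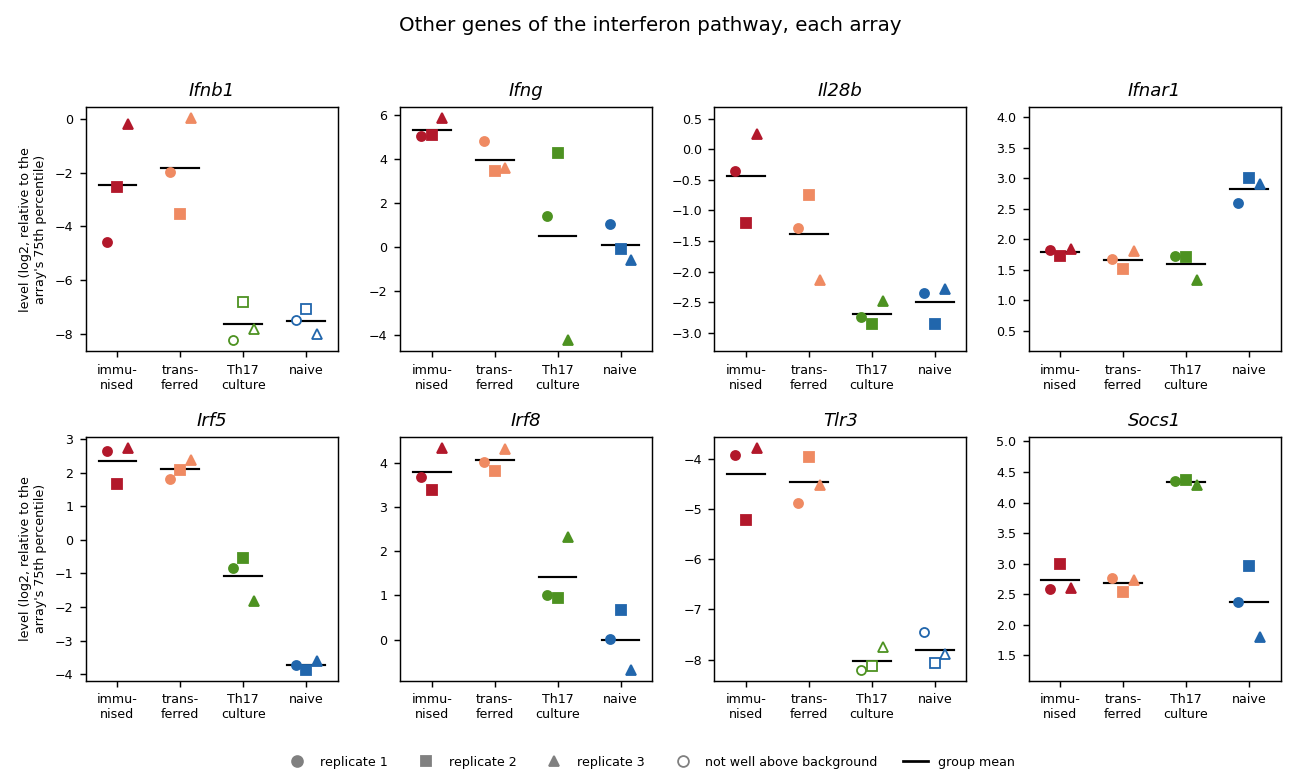
Levels (log2 relative to the array's 75th percentile) of Ifnb1, Ifng, Il28b, Ifnar1, Irf5, Irf8, Tlr3 and Socs1 on each array, with symbols for replicates, open symbols for arrays where the probe was not well above background, and bars for group means. Ifnb1 and Tlr3 are open on all 6 culture and naive arrays and filled on all 6 CNS arrays, and the Socs1 points of the culture lie above all others.

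Many markers of other cells were higher in the CNS groups, but not every list moved in this way. Of 14 macrophage and monocyte markers, 12 rose in immunised cells against the culture (median log2 fold change 7.68), 12 rose and 1 fell in transferred cells against it (7.69), and 13 rose and 1 fell in each CNS group against naive cells. In the culture against naive cells 7 rose and 2 fell, with a median of 1.43. Their summed signal, as a multiple of the array's 75th percentile, was 431 to 950 on immunised, 575 to 867 on transferred, 28.4 to 47.1 on culture and 24.5 to 98.2 on naive arrays. On the naive arrays that sum is mostly Itgam, at levels of 5.55, 4.48 and 6.58. The defining macrophage marker Emr1 and the dendritic cell marker Itgax were not well above background on any naive array. For 6 dendritic cell markers the sum was 4.49 to 5.68 on immunised, 5.53 to 12.9 on transferred, 0.626 to 0.964 on culture and 0.0955 to 0.243 on naive arrays. On the CNS arrays that sum is mostly Itgax, at levels of 1.87 to 2.29 on immunised and 2.33 to 3.66 on transferred arrays. Xcr1 was not well above background on any array. Of the 5 tested, 4 rose in immunised and 3 in transferred cells against the culture. Over all genes, 13.7% rose in immunised and 12.8% in transferred cells against the culture. Against naive cells, 20.6% of all genes rose in immunised cells, 21.2% in transferred cells and 19.7% in the culture. The same shares apply to the marker counts that follow for these comparisons.

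Of 8 microglia markers, 7 rose in each CNS group against the culture, with medians of 4.07 in immunised and 4.32 in transferred cells. Their sum was 117 to 146 on immunised, 130 to 146 on transferred, 82.2 to 107.5 on culture and 82.5 to 126 on naive arrays, of which Siglech, at levels of 6.23 to 6.93 over the 12 arrays, gives the larger part on each array. Of 8 neutrophil markers, 5 rose in immunised cells against the culture (median 2.50), and 5 rose and 2 fell in immunised against naive cells (median 4.42). In transferred cells 3 rose and 1 fell against the culture (median 1.38). Their sum was 477 to 581 on immunised, 97.4 to 247 on transferred, 90.4 to 104 on culture and 112 to 227 on naive arrays, where Csf3r, at 6.71 to 7.79, makes up most of it. The neutrophil gene S100a8 had levels of 7.52, 7.10 and 7.21 in immunised cells, 5.45, 3.44 and 0.81 in transferred cells, 0.65, -0.40 and 0.52 in the culture, and -2.31, -2.89 and -3.17 in naive cells.

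Between immunised and transferred cells, where Ifitm1 was called and 38 of the 43 listed genes had positive log2 fold changes, 2 of 8 neutrophil markers rose (median 2.12), 2 of 4 tested B cell markers rose (median 2.23), and 0 of 14 macrophage and 0 of 8 microglia markers were called (medians 0.06 and -0.02). Over all genes, 1.85% rose and 1.37% fell between these CNS groups. The summed signal of 6 B cell markers was 1.36 to 1.51 on immunised, 0.392 to 0.861 on transferred, 0.276 to 1.88 on culture and 1.06 to 2.11 on naive arrays. Of the 4 B cell markers tested, 3 fell in transferred cells against the culture and 3 against naive cells. For 8 T cell markers the summed signal was 275 to 405 on immunised, 184 to 272 on transferred, 447 to 467 on culture and 404 to 485 on naive arrays. Of these markers, 6 fell and 0 rose in transferred against naive cells, where 26.5% of all genes fell. In transferred cells against the culture 4 fell and 0 rose, where 15.5% of all genes fell. In immunised cells 2 rose and 3 fell against the culture, and 1 rose against transferred cells. In the culture against naive cells 1 rose and 2 fell. Other cells also express interferon-stimulated genes and Ifnb1, and their part in the levels and differences given here was not tested.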

How the data were processed

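RNA from 12 samples was labelled with Cy3 and hybridised to Agilent 1-colour mouse arrays, per the labels' protocols. The deposited scanner files hold linear intensity values from Agilent Feature Extraction 10.7.3.1, per the file headers, and the processed signal is already background-corrected. Control spots and outlier spots were left out, spots of a probe were averaged, and 39405 of 39429 probes were used. Each array's log2 intensity was centred on its 75th percentile. A deposited table of the authors' processed values, on a linear scale with column medians of 50.4 to 51.2 and an unstated normalization, served as an alternative. Its columns correlated with their own arrays at 0.9981 or more.

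The brightest probe stood for a gene, and a gene was tested where some group had it well above background on each of its 3 arrays, which left 18645 genes. They were fitted with limma 3.58.1 (R 4.3.3) as 4 group means, with 8 degrees of freedom from the residuals and 2.485 from the prior, and p-values were adjusted by Benjamini-Hochberg over those genes. A group with 0 arrays well above background gives only a bound ("at least"). The fit was tested on simulated data in which a gene had the same spread in every group. That test therefore does not cover the unequal spread between groups seen for the listed genes. Every array's values are given for the 4 list markers (Oas2, Oasl1, Ifi44, Irf7), for up to 3 members of each role with the largest absolute log2 fold change, and for members called against their family. Oas1a and Oas3 were added after their values were seen, to complete the OAS genes, and so were Cmpk2, Ifi35, Sp100, Bst2 and Isg20 among the remaining calls. Up to 4 called genes of each pathway list are named, and 1 gene of the pathway is not reported here. The genes and lists were chosen with earlier results of these data known. Alternatives are given in the closing section.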

Additional observations from a re-analysis of the deposited data

How the results depend on the processing

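Over the 43 interferon-stimulated genes, 6 comparisons and 22 alternatives, 5444 gene results kept their direction and side of the threshold, 99 passed it newly, 111 no longer passed it and 4 reversed. Ifit3, Oasl2 and Ifi44 have no value where a probe had to be well above background on all 12 arrays. Leaving out each array in turn gave 19 to 25 called genes in the culture against naive cells (22 with all arrays), 10 to 18 in transferred cells against the culture (14) and 8 to 17 in transferred against naive cells (10). It gave 1 to 6 in immunised against transferred cells (1), 12 to 23 in immunised cells against the culture (20) and 5 to 18 in immunised against naive cells (8). The genes called both with all arrays and without each array numbered 18, 10, 8, 1, 12 and 5 in those comparisons. With only the 6 arrays compared, the counts in that order were 16, 10, 13, 6, 14 and 12. In those fits the calls of Ifit1, Cmpk2, Gbp4, Herc6, Mx2 and Rsad2 in the culture against naive cells ended, as did those of Ifit2, Ifit3, Irf7, Mx2 and Rtp4 in transferred cells and of Ifit1, Ifit2, Ifit3, Bst2, Cmpk2, Ifih1, Isg15 and Mx2 in immunised cells against the culture, and that of Igtp in transferred against naive cells. With the slide, which is the replicate number, as a block, the counts in the same order of comparisons were 23, 14, 9, 1, 22 and 9. Over all genes tested, the deviations of same-numbered arrays from their group means correlated at -0.198 to 0.205. Among the 43 listed genes, replicate 3 was the lowest of its group for 35 in the culture, 29 in transferred and 26 in naive cells. In immunised cells it was lowest for 2 and highest for 37. Median scaling moved the median of all genes from -0.08 to 0.03 in culture against naive cells and from -0.10 to -0.21 in transferred cells against the culture, with 19 and 14 listed genes called. The mean of all probes of Parp9 reversed its sign, to 1.32 in immunised (adjusted p = 0.000746) and 0.944 in transferred cells (adjusted p = 0.006) against the culture and to 0.965 in immunised (adjusted p = 0.00268) and 0.586 in transferred cells (adjusted p = 0.0334) against naive cells, by construction from a second probe that disagrees. The stricter motif was in 26.3% of listed promoters in place of 47.4%. Over all genes, 601 were called between the CNS groups with all arrays, against 194 to 366 without any 1 of 5 arrays, 1290 without culture replicate 3, 372 with no filter on dim probes and 367 with probes well above background on all 12 arrays, and 3318 in place of 5273 were called in transferred cells against the culture from their 6 arrays alone. The cause of these changes was not tested, apart from the fewer arrays or probes. Oas1g, dim on 10 arrays, and the dim culture signals of Ifit3, Oasl2 and Ifi44 limit the size of those differences.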
